A study of Mus musculus with 20 samples.

Results

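Expression of 5 genes tied to interferon and inflammatory signalling was described in a mouse hepatocyte line immortalised in culture, AML-12. The genes were Ifi27, Nos2, H2-M2, Gbp2 and Rsad2, taken by name from the authors' 4 tables of differentially expressed genes, which together list 6261 genes. Wild-type (WT) and Ripk3-/- (KO) cells were sequenced by RNA-seq, each either untreated or exposed for 24 h to 125 µM palmitate coupled to bovine serum albumin, with 5 libraries in each of the 4 groups. Ripk3 is a kinase that drives necroptosis, a lytic form of cell death, and palmitate is a saturated fatty acid used to load hepatocytes with lipid. Whether untreated cells received albumin is not stated, and on these labels an effect of palmitate and an effect of albumin cannot be told apart. Neither the number of knockout clones nor whether replicate libraries derive from separate cultures is stated, and errors and p-values therefore reflect only library-to-library spread, possibly technical.

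Interferons bind receptors on the cell surface, and the receptor-linked JAK kinases then phosphorylate STAT factors. These factors act through DNA elements that include the interferon-stimulated response element (ISRE) and the gamma-activated site (GAS). Hepatocytes answer interferons and inflammatory cytokines with antiviral proteins, guanylate-binding proteins, nitric oxide synthesis and increased antigen presentation through MHC class I. Rsad2 encodes viperin, an antiviral enzyme induced by type I interferon. Ifi27 encodes a small interferon-induced membrane protein of mitochondria and the nuclear envelope. Gbp2 is a GTPase induced strongly by interferon gamma that acts on intracellular pathogens. Nos2 encodes the inducible nitric oxide synthase, which responds to interferon gamma together with NF-kB. H2-M2 is a non-classical MHC class I gene of the mouse M region.

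The 5 genes lie at separate loci in mm10, with the same starts and ends in GENCODE vM21. Ifi27 (ENSMUSG00000064215) spans chr12:103434211-103440239 on the plus strand and Nos2 (ENSMUSG00000020826) spans chr11:78920787-78960254 on the plus strand. H2-M2 (ENSMUSG00000016283) spans chr17:37480851-37483552 on the minus strand. Gbp2 (ENSMUSG00000028270) spans chr3:142620602-142638008 on the plus strand and overlaps the antisense microRNA gene Mir6381. Rsad2 (ENSMUSG00000020641) spans chr12:26442746-26456452 on the minus strand. Ifi27, Gbp2 and H2-M2 belong to families of similar sequence, so reads shared with relatives could be counted for either, and their levels carry that uncertainty.

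RefSeq promoter sequence was at hand for 3 of the 5 genes, Gbp2, Rsad2 and H2-M2, and it is shown because these genes differ in which interferon or NF-kB letters stand before the start. Sequences come from RefSeq on GRCm38.p6 and are written 5′ to 3′ on the strand of the gene. Capitals mark a match to the ISRE in Gbp2 and Rsad2, and to the NF-kB consensus in H2-M2. The Gbp2 stretch is chr3:142620413-142620613 on the plus strand. It shows the first 201 of the 250 bases before the RefSeq start and ends at the ISRE match. Its last 12 bases, which hold that match, lie inside the gene model of the deposited tables. The Rsad2 stretch is chr12:26456453-26456702 and the H2-M2 stretch is chr17:37483555-37483804, both on the minus strand.
Gbp2: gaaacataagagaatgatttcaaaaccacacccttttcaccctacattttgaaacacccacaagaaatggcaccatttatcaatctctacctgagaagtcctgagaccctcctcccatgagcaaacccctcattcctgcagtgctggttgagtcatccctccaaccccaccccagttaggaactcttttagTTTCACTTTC
Rsad2: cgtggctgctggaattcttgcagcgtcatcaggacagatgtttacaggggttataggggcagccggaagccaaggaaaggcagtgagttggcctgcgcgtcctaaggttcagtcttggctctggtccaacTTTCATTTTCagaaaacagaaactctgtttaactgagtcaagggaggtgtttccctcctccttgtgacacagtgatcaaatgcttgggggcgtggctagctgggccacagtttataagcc
H2-M2: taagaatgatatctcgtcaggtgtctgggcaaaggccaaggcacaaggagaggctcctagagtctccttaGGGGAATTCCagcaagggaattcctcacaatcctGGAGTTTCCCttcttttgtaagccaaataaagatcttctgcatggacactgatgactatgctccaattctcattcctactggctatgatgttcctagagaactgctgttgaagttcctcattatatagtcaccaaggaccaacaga

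The 250 bases before each RefSeq start were searched on both strands for the ISRE core GAAANNGAAA, for the GAS core TTCNNNGAA and for the NF-kB consensus. Gbp2 held an ISRE match at 59 to 50 bases before its start, and Rsad2 held an ISRE match at 120 to 111 bases before its start, both on the opposite strand to the gene. Among 32851 RefSeq promoters of the same length, 2.98% held that letter pattern. H2-M2 held an NF-kB match at 180 to 171 bases on its own strand and another at 146 to 137 bases on the opposite strand, a pattern held by 7.25% of promoters. No GAS match was found in these windows, and 7.02% of promoters held a GAS match. None of the 4 matches overlapped another. These are descriptions of letters and say nothing of binding in these cells.

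**Figure D1:**
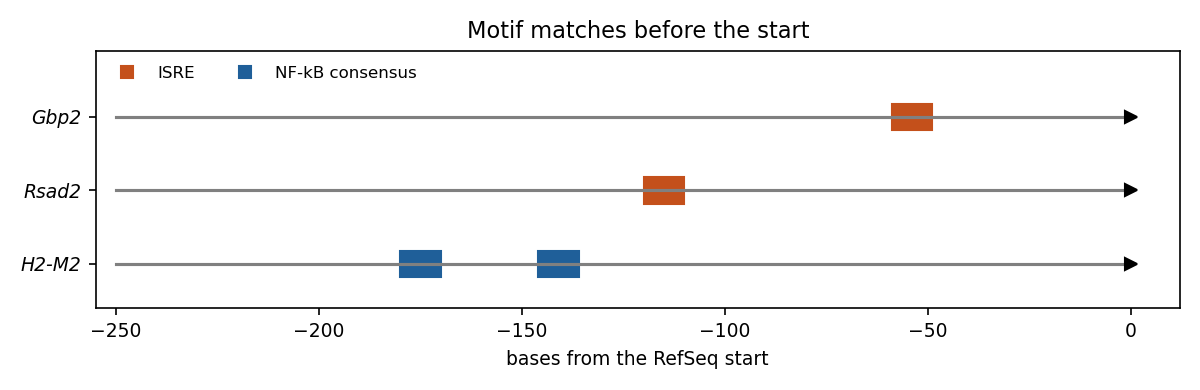
Position of motif matches in the 250 bases before the RefSeq start of Gbp2, Rsad2 and H2-M2, in bases from the start at 0 (arrow), with boxes coloured by motif. Gbp2 and Rsad2 each have 1 ISRE box and H2-M2 has 2 NF-kB boxes.

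Library sizes implied by the authors' FPKM were 21.2 M to 30.1 M reads. Ripk3 itself was counted at 12 to 28 reads per wild-type library and 1 to 10 reads per knockout library, with no overlap between genotypes at either treatment. Of 24 hepatocyte markers 15 were in any table, and they ranged from Krt8 (781 to 1053 FPKM) and Ttr (358 to 501 FPKM, 15 libraries) through Alb (2.87 to 6.69 FPKM) to Fgb (0.0880 to 0.564 FPKM). They moved with genotype: without palmitate edgeR called 6 lower and 2 higher in knockout cells, the largest being Apoe (41.7 ± 4.0 to 5.77 ± 0.780 FPKM, -2.86, edgeR adjusted p = 4.3e-10), Apoh (-1.65) and Vtn (-1.59). With palmitate 6 were lower and 5 higher, the higher ones led by Serpina1a (1.15) and Trf (0.80). Of all genes tested, edgeR called 7.42% lower and 7.08% higher without palmitate, and 12.1% each way with it. Palmitate moved these markers too, with 2 called higher and 4 lower in wild-type cells, against 8.4% and 6.25% of all genes tested. In knockout cells 2 were called higher and 1 lower, against 4.41% and 3.15%. The part of these markers in the members' differences was not tested. Over the genes of the genotype table without palmitate, untreated knockout replicate 1 stood apart from its group. There, the chi-square of counts per degree of freedom was 34.4 to 47.4 in its 4 pairs. Across all 4 comparisons, the 72 pairs without this library were at most 15. Over the genes of the palmitate table in knockout cells its 4 pairs were at 5.38 to 13.4, within the range of other pairs. The members' fitted effects that use this library, and the list counts that change without it, are also given without it.

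The 5 genes were selected on measured values of these same comparisons, because a table lists a gene only when its adjusted p in the authors' test is under 0.05. Their fold changes are therefore given as descriptions with no test. Palmitate in wild-type cells listed 3 of the 5 (H2-M2, Gbp2 and Rsad2), against 15.8% of the 13764 genes the authors tested. Palmitate in knockout cells listed H2-M2, Gbp2 and Nos2, against 10.2% of 12871 genes. Genotype without palmitate listed Ifi27, Nos2 and H2-M2, against 18% of 16106 genes, and genotype with palmitate listed all 5, against 24.6% of 17611 genes. Nothing is read from these counts, since the rule fixed them. The listings closest to the threshold, by the adjusted p in the authors' deposited table, were those of Nos2 for palmitate in knockout cells (0.0343) and of Gbp2 for genotype with palmitate (0.0441). Genes just outside the threshold are not analysed here.

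Ifi27, Gbp2, Nos2 and H2-M2 had counts in all 20 libraries, because a gene listed in several tables has counts for each group compared. Their 4 effects were therefore taken from a joint fit over the 20 libraries, which differed from the separate tables by at most 0.00379 on the log2 scale over 12 values. Rsad2 had counts in 15 libraries, and untreated knockout cells are not analysed here for it. Levels are the authors' FPKM, reads scaled for gene length and library size, which allows levels of different genes to be compared.

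**Figure D2:**
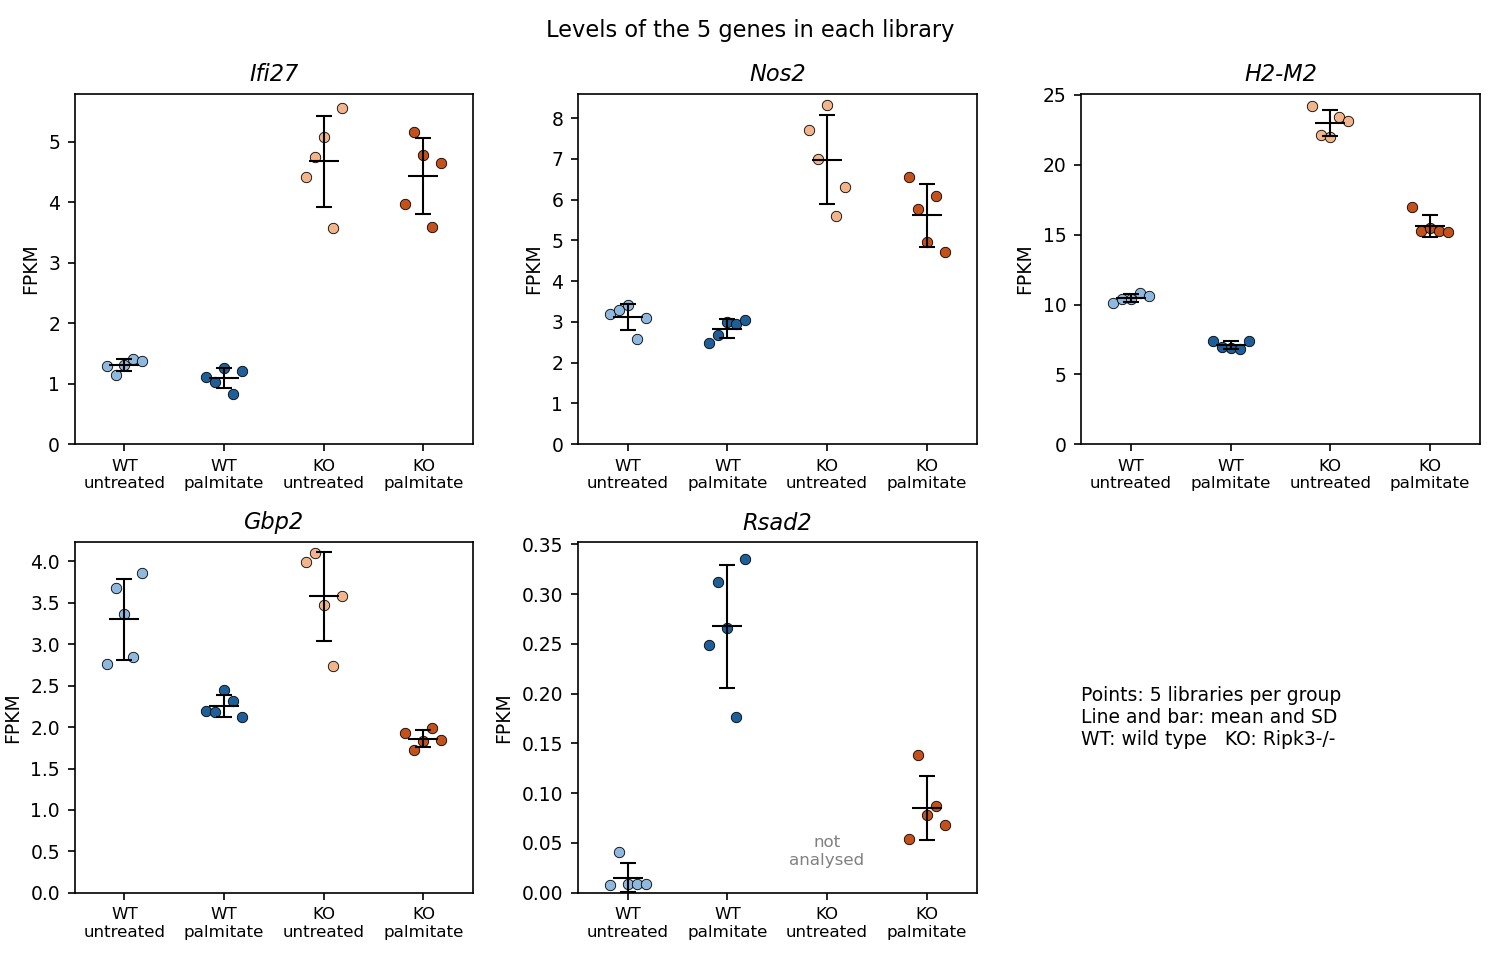
FPKM of the 5 genes in each library by group (points), with the group mean (line) and SD (bars), n = 5 per group; each vertical axis starts at 0. The knockout libraries of Ifi27, Nos2 and H2-M2 all lie above the wild-type libraries, and Gbp2 and H2-M2 were lower in every palmitate library than in every untreated library of the same genotype.

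Ifi27 was higher in knockout cells at both treatments and changed little with palmitate. In untreated wild-type cells the 5 libraries were at 1.30, 1.14, 1.32, 1.41 and 1.37 FPKM, and in palmitate-treated wild-type cells at 1.12, 1.03, 1.25, 0.838 and 1.22 FPKM. Untreated knockout libraries were at 4.42, 4.74, 5.09, 3.57 and 5.56 FPKM, and palmitate-treated knockout libraries at 3.97, 5.16, 4.78, 3.60 and 4.66 FPKM. The lowest knockout library was above the highest wild-type library, whereas treated and untreated libraries of each genotype overlapped. The mean in knockout cells was 3.57 times that in wild-type cells without palmitate and 4.07 times with palmitate. The fitted log2 fold changes between genotypes were 1.84 (SE 0.13) and 2.03 (SE 0.14), and the former was 1.86 without untreated knockout replicate 1. Palmitate moved Ifi27 by -0.27 (SE 0.16) in wild-type and -0.07 (SE 0.12) in knockout cells, and neither palmitate table listed it, with -0.09 in knockout cells without untreated replicate 1. In order of mean level the groups were palmitate-treated wild type (1.09 ± 0.166, SD, n = 5), untreated wild type (1.31 ± 0.104), palmitate-treated knockout (4.43 ± 0.634) and untreated knockout (4.68 ± 0.749), and neighbours of the same genotype did not differ beyond their spread. In bulk samples such as these, fewer expressing cells and less RNA per cell cannot be told apart.

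Nos2 followed the same order of genotypes with a smaller ratio. Untreated wild-type libraries were at 3.19, 3.28, 3.43, 2.58 and 3.11 FPKM, and palmitate-treated wild-type libraries at 2.49, 2.69, 2.99, 2.95 and 3.05 FPKM. Untreated knockout libraries were at 7.71, 6.99, 8.31, 5.59 and 6.30 FPKM, and palmitate-treated knockout libraries at 6.56, 5.77, 4.97, 6.09 and 4.71 FPKM. Every knockout library was above every wild-type library, and the treated and untreated libraries overlapped in both genotypes. Means in knockout cells were 2.24 times those in wild-type cells without palmitate and 1.98 times with palmitate, with log2 fold changes of 1.16 (SE 0.10) and 0.98 (SE 0.11), the former being 1.13 without untreated knockout replicate 1. The mean with palmitate differed from that without by -9.05% in wild-type cells, where the gene was not listed, and by -19.5% in knockout cells, where it was listed. The corresponding log2 values were -0.14 (SE 0.11) and -0.32 (SE 0.10), the latter being -0.28 without untreated knockout replicate 1. Nos2 varied more between knockout libraries (SD 1.08 without and 0.773 with palmitate) than between wild-type libraries (SD 0.323 and 0.237).

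H2-M2 was the only one of the 5 whose groups were separate in all 4 comparisons. Untreated wild-type libraries were at 10.1, 10.4, 10.4, 10.8 and 10.6 FPKM, and palmitate-treated wild-type libraries at 7.37, 6.95, 6.88, 6.83 and 7.38 FPKM. Untreated knockout libraries were at 24.2, 22.2, 22, 23.4 and 23.1 FPKM, and palmitate-treated knockout libraries at 17, 15.3, 15.4, 15.3 and 15.2 FPKM. No library of any group lay within the range of another group. Separation is common among listed genes, at 70.1% and 66.1% of those listed for palmitate in wild-type and knockout cells, and 57% and 70.5% of those listed for genotype in untreated and treated cells. The knockout mean was 2.2 times the wild-type mean without palmitate and 2.21 times with palmitate, a log2 fold change of 1.14 (SE 0.05) at both treatments. The mean with palmitate differed from that without by -32.3% in wild-type and -32.0% in knockout cells, a log2 fold change of -0.56 (SE 0.05) in both genotypes. Without untreated knockout replicate 1 the genotype effect was 1.12 and the palmitate effect in knockout cells was -0.54. Of the 4 genes with counts in all libraries, H2-M2 had the highest mean level in each group.

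Gbp2 was lower with palmitate in both genotypes. Untreated wild-type libraries were at 2.76, 3.68, 3.36, 2.85 and 3.86 FPKM, and palmitate-treated wild-type libraries at 2.19, 2.18, 2.45, 2.31 and 2.13 FPKM. Untreated knockout libraries were at 4.0, 4.10, 3.48, 2.74 and 3.58 FPKM, and palmitate-treated knockout libraries at 1.92, 1.73, 1.83, 1.99 and 1.84 FPKM. Treated and untreated libraries did not overlap in either genotype. The mean with palmitate differed from that without by -31.8% in wild-type cells and -48% in knockout cells, with log2 fold changes of -0.55 (SE 0.11) and -0.95 (SE 0.11), the latter being -0.90 without untreated knockout replicate 1. Between genotypes Gbp2 overlapped without palmitate (0.12, SE 0.10, and 0.08 without untreated knockout replicate 1, not listed) and was separate with palmitate, where knockout libraries were lower (-0.28, SE 0.11). Untreated libraries ranged more widely (SD 0.490 and 0.537) than palmitate-treated libraries (SD 0.130 and 0.0992).

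Rsad2 was the lowest of the 5 and the only member with more reads after palmitate. Untreated wild-type libraries were at 0.00786, 0.0411, 0.00841, 0.00870 and 0.00876 FPKM, which is 1 to 5 reads per library and 9 reads in all. Palmitate-treated wild-type libraries were at 0.249, 0.312, 0.266, 0.176 and 0.336 FPKM, which is 23 to 35 reads per library and 148 in all. Palmitate-treated knockout libraries were at 0.0542, 0.139, 0.0783, 0.0870 and 0.0685 FPKM, which is 5 to 14 reads per library and 43 in all. These 3 groups did not overlap. The summed reads, scaled for library size, were 17.4 times higher in palmitate-treated than in untreated wild-type cells (95% exact Clopper-Pearson interval 8.93 to 38.9). Untreated wild-type replicate 2 held 5 of the 9 untreated reads, and without it the ratio was 31.2 (11.9 to 116). Palmitate-treated wild-type cells had 3.07 times the scaled reads of palmitate-treated knockout cells (2.17 to 4.41). These intervals cover counting error only. The fitted log2 fold changes were 4.04 (SE 0.39) for palmitate in wild-type cells and -1.61 (SE 0.27) for knockout against wild-type cells with palmitate, and the former was 4.80 without untreated wild-type replicate 2.

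**Figure D3:**
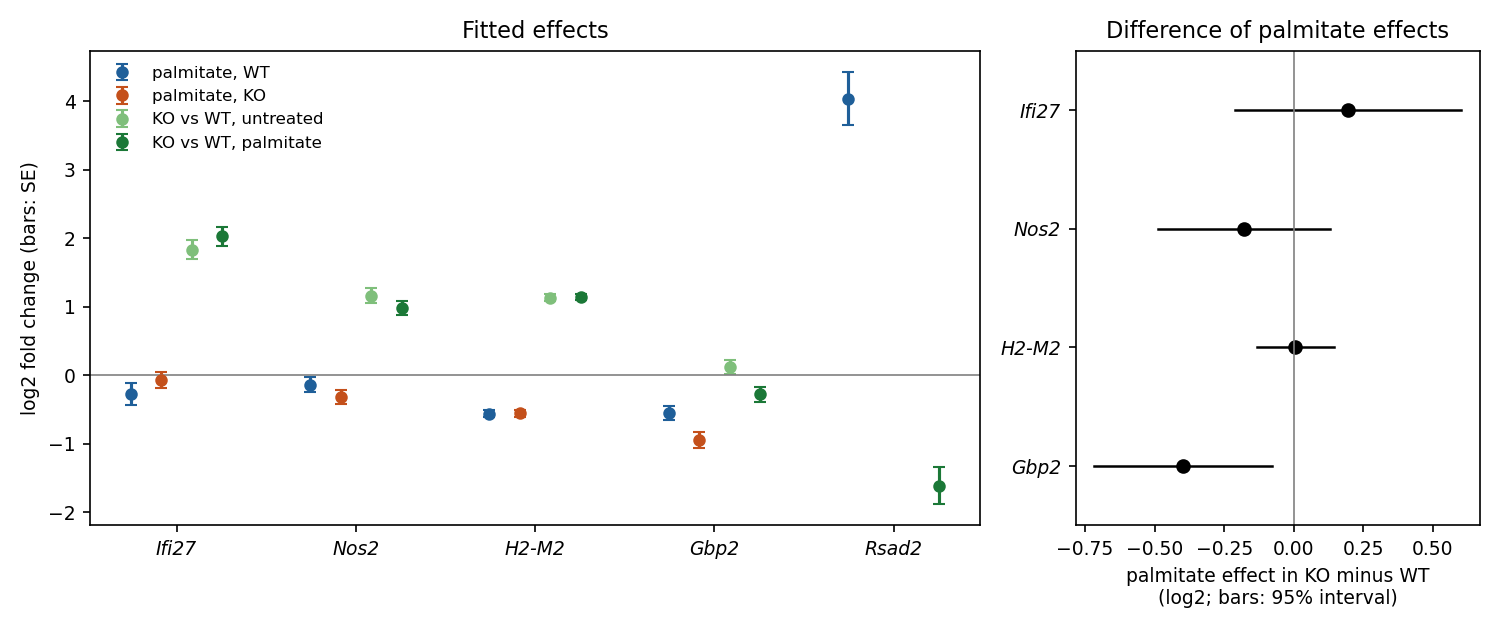
Left, fitted log2 fold changes with SE for palmitate in each genotype and for KO against WT at each treatment; right, the palmitate effect in KO minus that in WT with its 95% interval. Ifi27, Nos2 and H2-M2 have genotype effects of 0.98 to 2.03, and the interval of the difference lies below 0 for Gbp2 alone, whose adjusted p was 0.751.

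Whether palmitate acted by a different amount in each genotype was fitted as the interaction term of edgeR's quasi-likelihood model over 2993 genes with counts in all 20 libraries. It was not a listing criterion, but it is built from the same palmitate and genotype effects that put the genes in the tables, so its p-values are not independent of the choice of genes. Gbp2 had the largest difference of the 4 testable genes, with palmitate lowering it by more in knockout cells (interaction -0.40 on the log2 scale, SE 0.15, 95% interval -0.72 to -0.08). Its unadjusted edgeR p was 0.0170, rank 67 of 2993, and its Benjamini-Hochberg adjusted p was 0.751, so it did not pass. For Nos2 the difference was -0.18 (-0.49 to 0.13, edgeR adjusted p = 0.990), and for Ifi27 it was 0.20 (-0.21 to 0.60, edgeR adjusted p = 0.990). For H2-M2 it was 0.0065 (-0.13 to 0.15, edgeR adjusted p = 0.990), an interval that reaches about the same distance on both sides of 0. Over the 2993 genes edgeR called 0 interactions, with 173 at an unadjusted p under 0.05 (5.78%). DESeq2 called 6 and had 182 at an unadjusted p under 0.05. These genes were themselves selected, because only a gene in each palmitate table, or in each genotype table, has counts in all 20 libraries. Genes listed in other ways, such as Rsad2, were not fitted. The calls, the 5.78% share, the rank and the adjusted p-values therefore hold within this selected set. They cannot show how common interactions were among all genes tested. Without untreated knockout replicate 1 the interactions were -0.36 for Gbp2, -0.14 for Nos2, 0.18 for Ifi27 and 0.027 for H2-M2, none of which passed, and edgeR called 2 interactions over all genes fitted. No interaction could be fitted for Rsad2.

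Among the members with counts in all libraries, library-to-library variation within groups was most alike for Gbp2 and Nos2. After subtracting group means on the log2(normalised count + 10) scale, the Pearson r of Gbp2 and Nos2 was 0.49 over 20 libraries, and the other 5 pairs were between -0.10 and 0.08. On levels, which carry the group differences, Ifi27, Nos2 and H2-M2 had r of 0.91 to 0.92 with each other. These correlations describe libraries that share groups and scaling, and no test was made of them.

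The genes most like each member were ranked by r among genes with counts in the same libraries. For Ifi27 the closest levels were those of Sox11 (r = 0.98), Lncenc1 (0.98) and Casp4 (0.97), the last encoding an inflammatory caspase, and the closest within-group deviations were those of Psme2 (0.80), Sdsl (0.75) and Gadd45b (0.75). For Nos2 the closest levels were those of Sestd1 (0.96), Sgk3 (0.95) and Dnajc10 (0.95), and the closest deviations those of Pls1 (0.90), complement C3 (0.86) and Abca8a (0.82). For H2-M2 the closest levels were those of the iron exporter Slc40a1 (0.97), Sult1c2 (0.97) and Rnf180 (0.96), and deviations reached 0.73 with Clk3. For Gbp2 the closest levels were those of the NF-kB subunit Relb (0.93), Vps41 (0.91) and Sun2 (0.91), and the closest deviations those of Tnfaip2 (0.87), the adhesion molecule Vcam1 (0.83) and Col4a1 (0.81). For Rsad2, over 15 libraries, the closest levels were those of Atp13a4 (0.95), Ptprn (0.94) and Sprr1a (0.93).

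The rest of the interferon pathway was described through lists of genes, counting how many each table lists and how many edgeR calls at an adjusted p under 0.05. Because the tables hold only genes past the authors' test, a gene that is not listed is not analysed here, and the call shares to compare with are those of all genes tested. For palmitate in wild-type cells edgeR called 8.4% of genes higher and 6.25% lower, and in knockout cells 4.41% and 3.15%. For genotype it called 7.08% higher and 7.42% lower without palmitate, and 12.1% each way with palmitate. The median log2 fold change of all listed genes was 0.12 for palmitate in wild-type cells and 0.16 in knockout cells. For genotype it was 0.10 in untreated and 0.06 in treated cells. Each group enters 2 of the 4 tables, so counts of tables that share a group are not independent.

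Interferon-induced GTPases attack the membranes around intracellular pathogens, and 6 of the 19 in the list were in any table. Leaving out Gbp2, which was chosen on these values, 3 of the other 18 were listed and called lower with palmitate in wild-type cells and none higher, with a median of -0.15 over these 3. They were Gbp4 (1.54 ± 0.160 to 1.16 ± 0.0777 FPKM, log2 fold change -0.40, edgeR adjusted p = 0.00248), Gbp9 (-0.15, adjusted p = 0.0245) and Irgm1 (-0.15, adjusted p = 0.0449). With Gbp2 the count was 4, and it was 2 when any of palmitate replicates 1, 2 and 4 or untreated replicates 1 and 5 was left out. In knockout cells 3 of these 18 were listed, all lower, with a median of -0.44, and 1 was called, Gbp4 (-0.65, edgeR adjusted p = 0.00566). Gbp9 (-0.26, adjusted p = 0.0522) and Gbp6 (-0.44, adjusted p = 0.0505) were listed there without passing the edgeR test, and both passed, with Gbp4 and Gbp2, without untreated knockout replicate 4. Gbp6 and Gbp10 were lower in knockout cells without palmitate (-0.52 and -0.48, edgeR adjusted p = 0.00533 and 0.0497) and with palmitate (-0.84 and -0.82, adjusted p = 9.8e-06 and 5.6e-05). Reads of these near-identical copies may be split between them, so their values are uncertain. Without palmitate 1 of these copies was called when any library other than knockout replicates 1 and 3 was left out. With palmitate 3 of the 18 were called lower in knockout cells and none higher, the third being Gbp9 (-0.24).

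Of 28 genes of MHC class I and antigen processing, 13 were in any table. Leaving out H2-M2, 7 of the other 27 were listed and called lower with palmitate in wild-type cells and none higher, with a median of -0.30 against -0.56 for H2-M2. They included Tapbp, which loads peptides onto class I molecules (56.1 ± 3.23 to 45.3 ± 1.54 FPKM, -0.31, edgeR adjusted p = 1.4e-05), the immunoproteasome subunit Psmb10 (-0.34, adjusted p = 0.000102) and the proteasome activators Psme1 (-0.22) and Psme2 (-0.30). In knockout cells 5 of the 27 were called lower and none higher, with a median of -0.30. With H2-M2 the count was 6, and it was 4 or 5 when any library was left out (4 without untreated knockout replicate 1). The 5 genes called beside H2-M2 included Tapbp (-0.30, edgeR adjusted p = 0.000946), Psmb10 (-0.32, adjusted p = 0.00399) and B2m, the light chain of class I molecules (746 ± 26.0 to 662 ± 22.8 FPKM, -0.17, adjusted p = 0.0034).

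Between genotypes the listed genes went both ways. Without palmitate none of the 27 genes other than H2-M2 was called higher in knockout cells. Those called lower were Psme1 (-0.28, edgeR adjusted p = 0.00162), the peptide editor Tapbpl (-0.26, adjusted p = 0.00723) and the immunoproteasome subunit Psmb8 (-1.02, adjusted p = 0.0209). Psmb8 was low, at 0.363 ± 0.0955 FPKM in wild-type and 0.176 ± 0.0582 FPKM in knockout cells, and its groups overlapped. The lower calls numbered 2 to 3 when a library was left out. With palmitate 5 of the other 27 were called higher and 4 lower, and the largest change was that of Nlrc5, a transactivator of class I genes (0.136 ± 0.0257 in wild-type and 0.202 ± 0.0476 FPKM in knockout cells, 0.60, edgeR adjusted p = 0.0211).

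Of 54 type I interferon-stimulated genes, 16 were in any table, and those called with palmitate went both ways in wild-type cells. Among those not listed in any table were Isg15, Ifit1 and Mx1. Leaving out Ifi27 and Rsad2, 2 of the other 52 were called higher in wild-type cells, against 8.4% of all genes tested. They were Ifi203 (1.33 ± 0.161 to 2.07 ± 0.235 FPKM, 0.63, edgeR adjusted p = 0.000133) and Ifit2 (0.33, adjusted p = 0.0201). In the same cells 4 were called lower, among them Parp14 (-0.26), Dtx3l (-0.22) and Parp9 (-0.21), and 0 to 2 of the list were called lower when any of palmitate replicates 1 to 5 or untreated replicates 2, 3 and 5 was left out. In knockout cells Ifit3 was the only gene listed (1.34 ± 0.172 to 1.91 ± 0.286 FPKM, 0.52, edgeR adjusted p = 0.0367), and it was not called when any library other than palmitate replicate 5 and untreated replicate 4 was left out.

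Between genotypes without palmitate, 4 of the 52 type I genes other than Ifi27 and Rsad2 were listed, all higher in knockout cells. Of these, 2 were called, Ifi203 (0.61, edgeR adjusted p = 0.00442) and Samd9l (0.19, adjusted p = 0.0132), while 7.08% of all genes tested were called higher. With Ifi27 the count was 3, and it was 4 without untreated knockout replicate 1. With palmitate 5 of the 52 were called higher and 2 lower, against 12.1% of all genes tested each way. Those higher included Ifit3 (1.22 ± 0.173 in wild-type and 1.91 ± 0.286 FPKM in knockout cells, 0.65, edgeR adjusted p = 0.00112), Ifit3b (0.60, adjusted p = 0.00538) and Ifitm2 (0.35, adjusted p = 3.3e-06). Ifit3 and Ifit3b are close copies whose reads cannot be assigned with certainty.

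**Figure D4:**
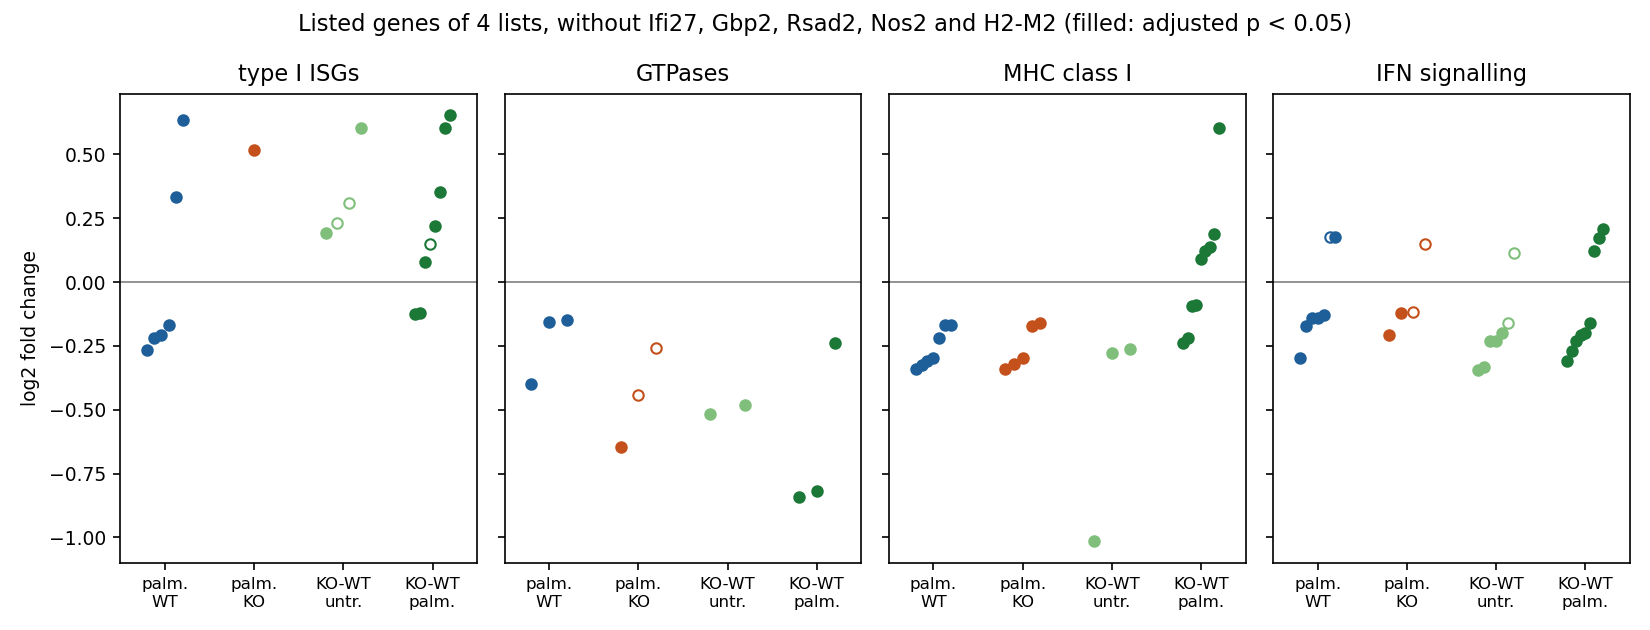
Fitted log2 fold change of each listed gene of 4 lists other than the 5 members (points), by comparison; filled points have an edgeR adjusted p under 0.05. All points for GTPases lie below 0, and those for MHC class I lie below 0 in both palmitate comparisons.

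Of 29 ligand, receptor and signalling genes of the interferon pathway, 13 were in any table, and 5 were called lower and 1 higher with palmitate in wild-type cells. Irf1, a transcription factor of the interferon gamma response, was at 22.1 ± 2.83 FPKM without and 18 ± 0.825 FPKM with palmitate (-0.30, edgeR adjusted p = 0.011). The receptor chains Ifngr2 (-0.17) and Ifnar1 (-0.14) and the kinase Jak2 (-0.14) were among the others called lower, and Socs3, a feedback inhibitor, was called higher (0.18, adjusted p = 0.0339). That last call was lost without any of palmitate replicates 1, 2 and 3 or untreated replicates 1, 3 and 5. In knockout cells 2 were called lower, Jak2 (-0.21, edgeR adjusted p = 0.00178) and Ifnar1 (-0.12, adjusted p = 0.0414), and 1 was called lower when any of palmitate replicates 2 to 5 or untreated replicates 1 to 3 was left out.

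By genotype, 5 of the 29 were called lower and none higher in untreated knockout cells, and 6 were called lower without replicate 1 of these cells. Ifngr1, the ligand-binding chain of the interferon gamma receptor, was at 75.1 ± 2.49 FPKM in wild-type and 59.2 ± 1.02 FPKM in knockout cells (-0.34, edgeR adjusted p = 6.9e-06). Irf9, a DNA-binding subunit of the factor that recognises the ISRE, was lower without palmitate (-0.33, adjusted p = 0.0029) and with palmitate (-0.31, adjusted p = 0.000169). With palmitate 6 were called lower and 3 higher in knockout cells.

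Among 16 symbols for nucleic acid and pattern sensing, which include 2 pairs of aliases, 8 were in any table. In knockout against wild-type cells 3 were called higher and 1 lower without palmitate, and 3 higher and 3 lower with palmitate. Tlr4, the endotoxin receptor, was at 0.0262 ± 0.00516 FPKM in wild-type and 0.103 ± 0.0385 FPKM in knockout cells without palmitate (1.96, edgeR adjusted p = 0.00215). It was near the floor there, with libraries at 0.0197 to 0.143 FPKM. Tmem173, which encodes STING, the adaptor of cytosolic DNA sensing, was at 1.60 ± 0.111 and 2.48 ± 0.288 FPKM (0.63, adjusted p = 0.00151). Both were also called higher in knockout cells with palmitate (1.28 and 0.52), and Samhd1, a nucleotide hydrolase, was called higher at both treatments (0.18 and 0.19). The adaptor Myd88 was called lower in knockout cells without palmitate (-0.26, adjusted p = 0.0135) and with palmitate (-0.22, adjusted p = 0.00475), and the kinase Ikbke (-0.15) and Tlr2 (-0.19) were called lower with palmitate. Palmitate lowered Tlr2, a lipopeptide receptor, in wild-type (-0.30, edgeR adjusted p = 0.00271) and knockout cells (-0.35, adjusted p = 0.0377). In knockout cells 3 of the 16 were called lower, and 1 or 2 when any library was left out. The count was 1 without any of palmitate replicates 2, 3 and 5 or untreated replicates 1 to 3.

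Of 17 genes for nitric oxide and arginine metabolism, Nos2 was left out. Of the other 16, 2 were called higher and 3 lower in knockout cells at each treatment. Those higher were Slc7a1, a transporter of the Nos2 substrate arginine (5.60 ± 0.545 in wild-type and 6.88 ± 0.180 FPKM in knockout cells without palmitate, 0.30, edgeR adjusted p = 0.00322), and Ddah2, which degrades methylarginine inhibitors of nitric oxide synthases (0.42, adjusted p = 0.0368). Gch1, the rate-limiting enzyme for the Nos2 cofactor tetrahydrobiopterin, was lower in knockout cells without palmitate (-0.24, edgeR adjusted p = 0.0129) and with palmitate (-0.30, adjusted p = 0.000446). Ass1, which makes the arginine precursor argininosuccinate, had the largest change of the list without palmitate, from 0.142 ± 0.0815 FPKM in wild-type to 0.0413 ± 0.0171 FPKM in knockout cells (-1.74, edgeR adjusted p = 0.0419). Ass1 was near the floor, with its lowest library at 0.0174 FPKM, and its groups overlapped. Without palmitate 1 was called lower when any of knockout replicates 2 to 4 or wild-type replicates 1 and 2 was left out. Palmitate left 1 gene of the list called in wild-type cells, Ddah1 (-0.13, adjusted p = 0.00327), and 0 in knockout cells.

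Macrophages also express Nos2 and Gbp2, and 2 of the 21 macrophage and leukocyte markers were in any table. Cd14 was at 117 to 205 FPKM and Cd68 at 0.641 to 2.02 FPKM over the libraries, while the defining leukocyte marker Ptprc and the macrophage markers Adgre1 and Csf1r were not listed and are not analysed here. The summed level of Cd14 and Cd68 was 118 to 142 FPKM in untreated and 152 to 171 FPKM in palmitate-treated wild-type libraries. In knockout libraries it was 153 to 183 FPKM without and 172 to 207 FPKM with palmitate. The sum is almost wholly Cd14, and it was higher in knockout than in wild-type libraries at each treatment with no overlap. Cd68 had lower means in knockout cells, at 0.835 ± 0.178 against 1.08 ± 0.146 FPKM without palmitate and 1.42 ± 0.274 against 1.89 ± 0.156 FPKM with palmitate, and was in neither genotype table. With palmitate both markers were called higher in both genotypes, and in knockout cells both calls were lost with DESeq2 size factors over listed genes. Of 10 endothelial markers Stab1 was the only one in any table, lower in knockout cells (-0.41 without and -0.74 with palmitate, edgeR adjusted p = 0.024 and 5.1e-05), and of 12 stellate and fibroblast markers Des was the only one, higher in knockout cells (0.84 and 1.07, adjusted p = 0.042 and 0.0119), both below 1 FPKM. The cells are a hepatocyte line in culture, and these values are levels of the named genes rather than amounts of other cell types. The part of other cell types in the results was not tested.

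The protein-coding neighbours of each member were examined within 500 kb. Of 21951 protein-coding genes in GENCODE vM21, 25.4% were in any of the tables. Ifi27 had 18 neighbouring genes, of which 2 were in any table, Serpina1b and Serpina1a, and its close relatives Ifi27l2a and Ifi27l2b were not listed. In knockout cells Serpina1b was called higher without and with palmitate (0.63 and 0.78), and Serpina1a (0.57 and 1.15) only with palmitate. Rsad2 had 2 neighbours and neither was listed, including Cmpk2. Nos2 had 18 neighbours with 8 listed in any table. In knockout cells without and with palmitate, Ksr1 (0.36 and 0.18) and Nf1 (0.35 and 0.28) were called higher and Vtn lower (-1.59 and -1.42). H2-M2 had 46 neighbours, mostly olfactory receptor genes, with 3 listed. Of these, Gabbr1 (0.41 and 0.25) and Zfp57 (0.29 and 0.21) were called higher in knockout cells without and with palmitate. The remaining listed neighbour was Ubd, a ubiquitin-like protein induced by interferon gamma. Ubd was lower with palmitate in wild-type cells (-1.18, edgeR adjusted p = 0.00103) and higher in knockout than wild-type cells with palmitate (0.80, adjusted p = 0.0168). Gbp2 had 9 neighbours with 3 listed, and Kyat3, a kynurenine aminotransferase 63043 bases away, was called lower in all 4 comparisons (-0.35 and -0.61 for palmitate in wild-type and knockout cells, and -0.60 and -0.86 for genotype in untreated and treated cells). Neighbours given with values, Ubd and Kyat3 among them, were named after those values were seen.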

How the data were processed

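RNA-seq was done on 20 libraries, 5 in each of 4 groups, grouped and numbered from the sample titles. Per the submitters' processing notes, FastQC 0.11.9, HISAT2, featureCounts 1.5.0-p3 and DESeq2 were used, and the genome was mm10. Which HISAT2, DESeq2 and annotation releases were used, and whether counting used strand, is not given in the sources used here. Per the file headers, the 4 tables the authors deposited hold raw read counts, normalised counts (a signal equal to the count divided by 1 factor per library, tested on the files), FPKM, the log2 fold change, and the p-value with its adjusted value. Each table lists only genes with an adjusted p-value under 0.05. The 8 enrichment files were not used, and 0 columns belonged to other samples.

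The members and gene lists were chosen with earlier results of these data known. The number of genes tested was recovered from the deposited p-values. Counts of each table were fitted with edgeR 4.0.16 (quasi-likelihood, R 4.3.3) using the authors' size factors, no filter on low counts and no replicate block, and p-values were adjusted by the Benjamini-Hochberg method over the number of genes the authors tested. Dispersions therefore rest on listed genes. The joint fit and interaction used the 2993 genes with counts in all 20 libraries, scaled by the library sizes implied by FPKM, which were not whole numbers in 18 of 20 libraries and so are scaled sizes rather than mapped reads. A gene with few reads, such as Rsad2, is limited by counting error. Alternatives were DESeq2 1.42.0, limma 3.58.1 on log2(normalised count + 10) or + 1, TMM or DESeq2 size factors over listed genes, a mean count of at least 10, a replicate block and leaving out each library. The code was tested on simulated data. Named genes were the 5 members, genes among the 6 with the largest change per list and table, and the 3 most similar genes per member; not all of these are named. Of the 6261 genes, 6257 were found in GENCODE vM21, and 5895 of them had the same start and end.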

Additional observations from a re-analysis of the deposited data

Results flagged for a closer look

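A library was singled out where its gap to the nearest other library of its group, as a share of the group's range, passed Dixon's 95% critical value. Of 19 groups tested, 2 had such a library, and chance gives about 1 in 20. H2-M2 was highest in palmitate-treated knockout replicate 1, at 17 FPKM, and the other 4 libraries lay close together. Rsad2 was highest in untreated wild-type replicate 2, at 0.0411 FPKM, which is 5 reads where the other 4 libraries had 1 each.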

How the results depend on the processing

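The direction of each of the 14 listed fold changes of the members was the same under all alternatives run, and the members' interactions did not pass under any. The count of interactions called was 0 by edgeR, 6 by DESeq2 and 3 with the replicate block, with 0 to 2 when a library was left out (2 without untreated knockout replicate 1). The interaction of H2-M2, near 0, changed sign under limma with a pseudocount of 10 (-0.0032) and under TMM (-0.015), and ranged from -0.025 to 0.027 when a library was left out. The cause of these changes was not tested.

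Called genes numbered 1551 to 1814 for palmitate in wild-type cells when a library was left out (2016 with all), 675 to 1058 in knockout cells (973), 1620 to 2392 for genotype without palmitate (2336) and 3763 to 3947 with palmitate (4259). For palmitate, scaling over the listed genes moved the split of calls from 1156 higher and 860 lower to 756 and 954 (TMM) in wild-type cells, and from 567 and 406 to 441 and 565 in knockout cells. With DESeq2 size factors the splits were 690 and 954, and 352 and 574. Under both scalings Ifit3 and Cd14 were no longer called in knockout cells, and all 4 listed GTPases were called lower there. Cd68 was also lost there with DESeq2 size factors. In wild-type cells the call of Socs3 was lost under both scalings, and that of Ifit2 with DESeq2 size factors. For genotype without palmitate, TMM lost the calls of Ddah1 and Gbp10. No called gene of the lists changed sign under either scaling. With a limma pseudocount of 10, which understates low genes, Rsad2 was at 1.80 for palmitate in wild-type cells. Same-numbered libraries did not deviate together in every pair (mean correlation 0.14, 0.14, 0.05 and -0.03 over the 4 tables). For palmitate the correlation of a pair reached 0.28 in wild-type and 0.33 in knockout cells. These values do not settle whether the numbers pair the libraries. The replicate block moved no count of calls in a table by over 1.5 times.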
